A study of Mus musculus with 11 samples.

Results

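Cohesin, condensin, the ATP-dependent chromatin remodelers and the main histone and DNA modifying enzymes were followed as a list of 53 genes in sorted retinal endothelial cells of mice. The list was matched by gene symbol to the 55359 genes of the count tables, and all 53 were found. It holds 5 subunits of the cohesin core, 5 regulators of cohesin including the insulator protein CTCF, both SMC subunits of the SMC5/6 complex, 8 condensin subunits, 12 subunits of the BAF and PBAF remodelers, 6 ATPases of the CHD and INO80 families, 4 genes of Polycomb repressive complex 2 (PRC2), 4 deacetylases, 4 lysine methyltransferases and 3 genes of DNA methylation.

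The cells came from C57BL/6 mice (strain as labelled, C57BL/6J in the methods) in the oxygen-induced retinopathy (OIR) model, in which pups are kept in high oxygen and pathological vessels grow after their return to room air. Oncostatin M (OSM), a cytokine of the IL-6 family, was injected into the vitreous at P12 as 0.5 µL of a 100 ng/µL solution in 5 mice, and PBS alone was injected in 6 mice. Live CD31+ and CD45- cells were sorted at P17 from both retinas of each mouse, so that 1 sample is 1 mouse, and the RNA was sequenced. The mice came from 3 litters, each its own OIR run, with 2 OSM and 2 PBS mice in litter 1, 2 and 2 in litter 2, and 1 and 2 in litter 3. The methods name the contralateral eye as the PBS control of the model and leave unstated if the 2 eyes pooled into a sample were injected alike, so the treatment is taken per mouse from the labels.

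Cohesin is a ring of SMC proteins that holds sister chromatids together after replication and extrudes loops of chromatin that stop at CTCF, while condensin compacts chromosomes for mitosis. BAF, PBAF, CHD and INO80 enzymes slide or evict nucleosomes with the energy of ATP. PRC2, the deacetylases, the KMT2 enzymes and the DNA methyltransferases write or erase the marks by which genes are kept silent or active, and several of these genes are transcribed mainly in dividing cells, which makes them relevant to the proliferating endothelium of OIR.

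The 11 libraries held 26697990 to 56033479 counted reads. The summed level of 12 endothelial markers was 16115 to 21494 CPM (read counts scaled to a common library total), that of 10 leukocyte markers 0.287 to 17.9 CPM, and no gene of these marker lists was at 0 in all mice. Markers of other cells were present at lower and less even sums. Mural cell markers summed to 603 to 1114 CPM in OSM mice and 408 to 2202 CPM in PBS mice, erythroid markers to 361 to 1129 and 117 to 596 CPM, and rod markers to 201 to 5524 and 375 to 1508 CPM, with mouse 5 (OSM, litter 2) at the highest rod sum.

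All 53 genes were expressed in every mouse. The lowest count was 21 reads, for Ino80 in mouse 4 (PBS), and 52 of the 53 genes had at least 100 reads in each of the 11 mice. On the RPKM scale (TMM-scaled CPM per kb of merged exons), the median level of the 53 genes was 6.80, against 1.97 for all genes tested with an exon length, and 47 members lay above that median. For comparison, the endothelial adhesion molecule Pecam1 stood at 133 ± 26.5 (SD, n = 11) on this scale and the proliferation marker Mki67 at 1.51 ± 0.822. The spread between mice was smaller than for most genes, with a median SD of log2 CPM over 11 mice of 0.42 for the members and 0.71 for all genes tested. The members also stood at higher levels than most genes, and this comparison was not matched for level.

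The highest levels belonged to Smarcd2, an accessory subunit shared by BAF and PBAF (32.8 ± 5.91, SD, n = 11), Ncaph2, the kleisin of condensin II (29.1 ± 4.79), and Smarca4, the BRG1 ATPase of BAF (27.2 ± 6.29). The ranges of these 3 genes over the mice overlapped. Part of the exon sequence of Ncaph2 (68.2%) and Smarcd2 (29.0%) also lies in exons of other annotated genes, and reads from such sequence cannot be assigned without doubt at standard settings of the counting. At the low end stood Ncapg2, a HEAT-repeat subunit of condensin II (0.999 ± 0.609), Ino80, the ATPase of the INO80 complex (1.03 ± 0.527), and Chd8, a remodeler of the CHD family (1.40 ± 0.429).

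**Figure D1:**
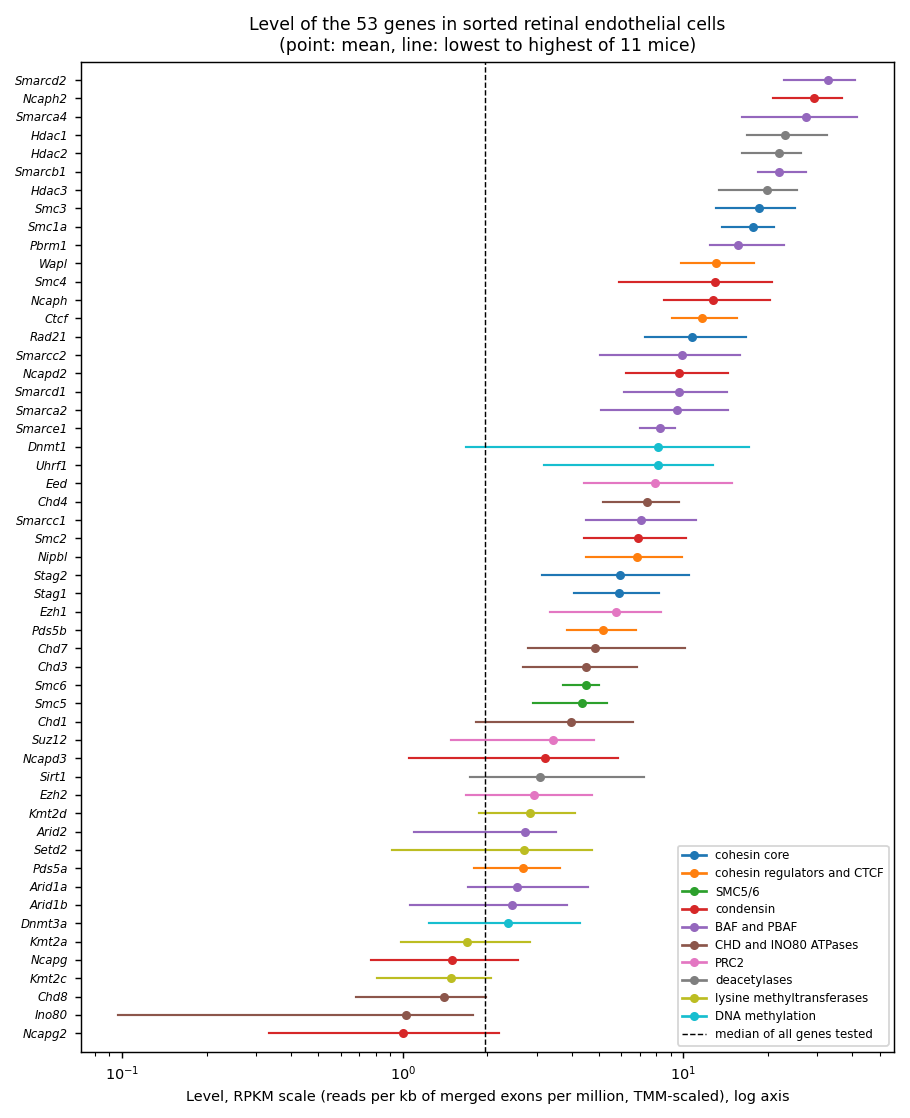
Level of each of the 53 genes on the RPKM scale (log axis), with a point at the mean and a line from the lowest to the highest of the 11 mice, coloured by complex or enzyme group. The dashed line marks the median of all genes tested (1.97), and 47 of the 53 means lie to its right.

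The 3 class I deacetylases were among the most abundant members, with Hdac1 at 23.1, Hdac2 at 22.0 and Hdac3 at 19.9 on the RPKM scale, whereas the NAD-dependent deacetylase Sirt1 was at 3.07. The 4 lysine methyltransferases had the lowest group median (2.20) and ranged from 1.49 for Kmt2c to 2.85 for Kmt2d. Within condensin, the SMC subunit Smc4 (13.0) and the condensin I kleisin Ncaph (12.8) were far above the condensin I subunit Ncapg (1.49), although all are parts of 1 complex. The steadiest members were Smc6, with an SD of 0.13 log2 CPM, and Smarce1, with 0.14. Ino80 varied most (SD of 1.28), followed by Ncapd3 (0.95) and Ncapg2 (0.90).

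For OSM against PBS, no member was called at an adjusted p under 0.05 in edgeR's quasi-likelihood test with litter as a term, and none of the 17050 genes tested was (0%). At an unadjusted p under 0.05, 3 of 53 members passed (5.66%), against 4.96% of all genes tested. All 3 were lower after OSM (Smc4, Pds5b and Pbrm1), against 2.71% of all genes tested, and none was higher, against 2.25%. DESeq2's Wald test, which was the tool of the study, called 1 of 53 members, Smc4, against 0.763% of the genes it tested (0.427% called lower), and no member when run on the genes that pass the low-count filter (0.412% called). At an unadjusted p under 0.05 in DESeq2's Wald test, 6 of 53 members passed (11.3%, against 6.07%), namely the 3 above with Pds5a, Ncapd3 and Arid1a.

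The fitted differences of the members were small and leaned to lower values in OSM mice. A log2 fold change below 0 was found for 34 of 53 members (64.2%) and for 51.6% of all genes tested, and the median was -0.13 for the members and -0.01 for all genes. Within litters, 11 members were lower after OSM in all 3 litters (20.8% against 11.8% of all genes) and 6 were higher in all 3 (11.3% against 11.3%). The 11 were Smc3, Rad21, Pds5b, Smc6, Smc4, Ncaph, Smarca4, Smarcd2, Arid1a, Pbrm1 and Sirt1. The 6 were Stag1, Wapl, Pds5a, Smc5, Ncapg2 and Kmt2c. No member had every OSM mouse below or above every PBS mouse, which 0.223% and 0.182% of all genes had. Smc4 and Pbrm1 had every OSM mouse of a litter below every PBS mouse of that litter in all 3 litters, as 0.845% of all genes tested had, and no member had the opposite order, which 0.886% had.

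**Figure D2:**
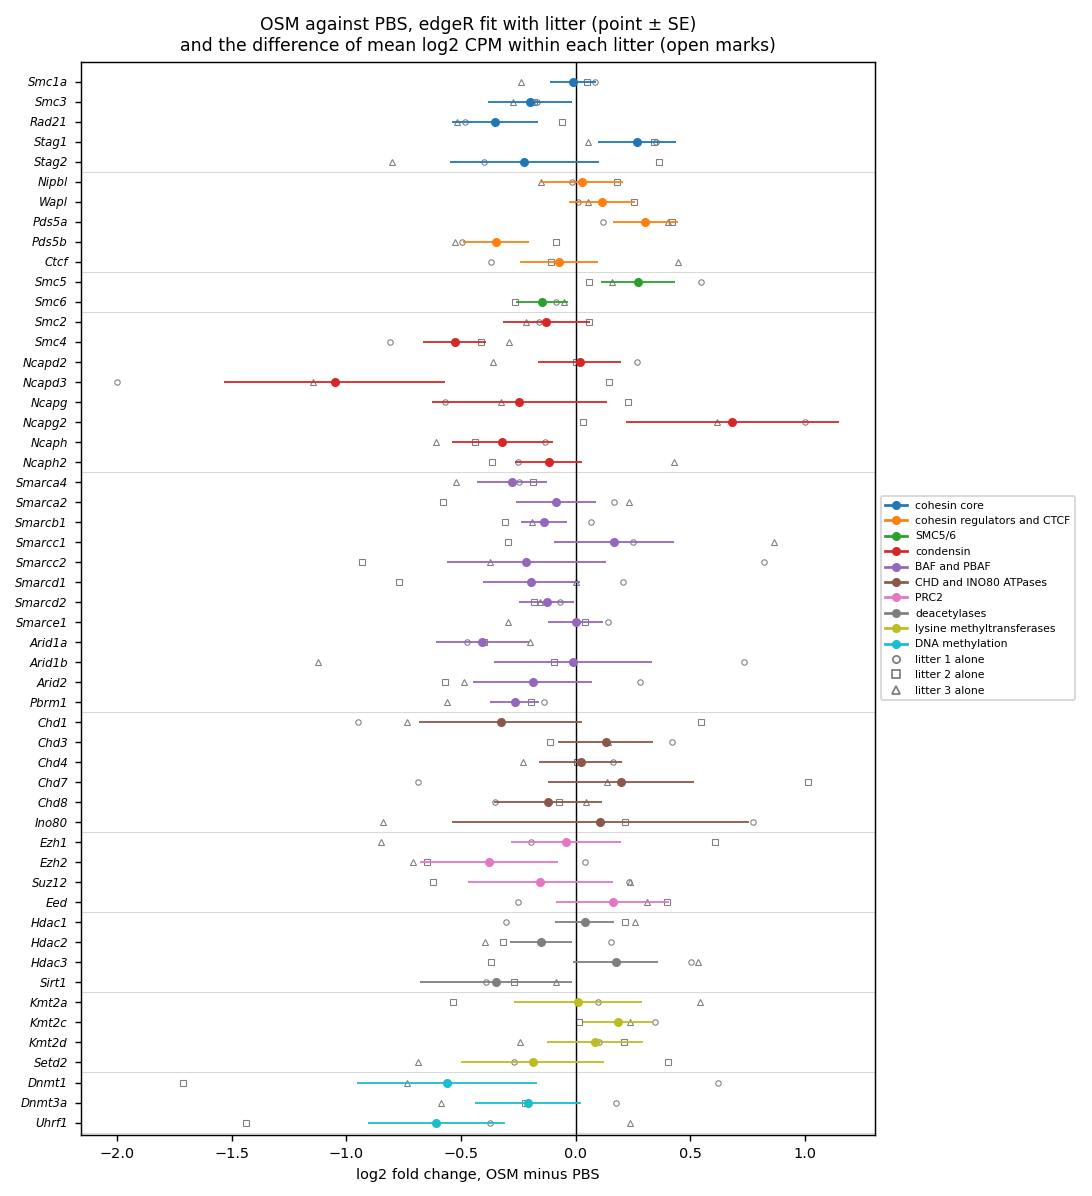
log2 fold change of OSM minus PBS for the 53 genes, ordered by complex, as points with standard errors from the edgeR fit, and the difference of mean log2 CPM within each litter as open marks. Most points lie between -0.5 and 0.5. Ncapd3 (-1.05) and Ncapg2 (0.68) lie outside with wide errors, as do Uhrf1 (-0.61), Dnmt1 (-0.56) and Smc4 (-0.53). Smc4 is 1 of 11 members that were lower in all 3 litters, and 6 members were higher in all 3.

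The mean log2 CPM over the 53 genes was 5.62, 5.65, 5.55, 5.59 and 5.70 in OSM mice 1, 2, 5, 6 and 9, a mean of 5.62 ± 0.06 (SD, n = 5). In PBS mice 3, 4, 7, 8, 10 and 11 it was 5.69, 5.66, 5.67, 5.73, 5.83 and 5.94, a mean of 5.75 ± 0.11 (SD, n = 6). In each litter the OSM mice lay below the PBS mice, narrowly in litter 1 (5.649 in OSM mouse 2, 5.655 in PBS mouse 4). The median OSM minus PBS difference of the 53 genes was 0.01, -0.10 and -0.22 in litters 1, 2 and 3. Across litters mouse 9 (OSM) lay above PBS mice 3, 4 and 7. With DESeq2's size factors in place of TMM the OSM mice were again the lower ones in each litter. The mean over all genes tested also separated in this direction in litters 2 and 3 and overlapped in litter 1. With TMM its OSM minus PBS difference was 0.01, -0.08 and -0.20 in litters 1, 2 and 3. That of the mean over the 53 genes was -0.04, -0.13 and -0.18.

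Genes of DNA replication and mitosis leaned in the same direction as the mean over the 53 genes. All 12 genes of an S phase list had a log2 fold change below 0 (median -0.38, 3 at an unadjusted p under 0.05), as had 13 of 16 genes of a G2 and M phase list (median -0.35, 2 at an unadjusted p under 0.05). No gene of either list was called by edgeR's quasi-likelihood test, and DESeq2's Wald test called 1 gene of the G2 and M phase list and none of the S phase list. The mean log2 CPM of the S phase list was 5.16 to 5.76 in OSM mice and 5.66 to 6.32 in PBS mice, lower in the OSM mice of each litter. That of the G2 and M phase list was 4.01 to 4.55 and 4.50 to 5.50, with an overlap in litter 2. Of single cell cycle genes, Mki67 was at -1.06 ± 0.46 (log2 fold change ± SE) and Top2a, the topoisomerase of mitotic chromosomes, at -0.28 ± 0.20. All 10 mural markers were also below 0 (median -0.68) and all 5 erythroid markers tested were above 0 (median 1.12). None of them was called by edgeR's quasi-likelihood test, where 1 mural and 5 erythroid markers had an unadjusted p under 0.05, while DESeq2's Wald test called 3 erythroid markers. Of 10 rod markers, 7 were above 0 (median 0.57). All 5 leukocyte markers tested were below 0 (median -2.05), at the low sums given above. So were 4 of 7 Müller cell markers tested (median -0.38) and 3 of 5 neuron markers tested (median -0.04). No rod, leukocyte, Müller cell or neuron marker was called by either test. The part of cell division or of other cells in the levels of the 53 genes was not tested, and in bulk RNA fewer cells of a type and less RNA per cell cannot be told apart.

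**Figure D3:**
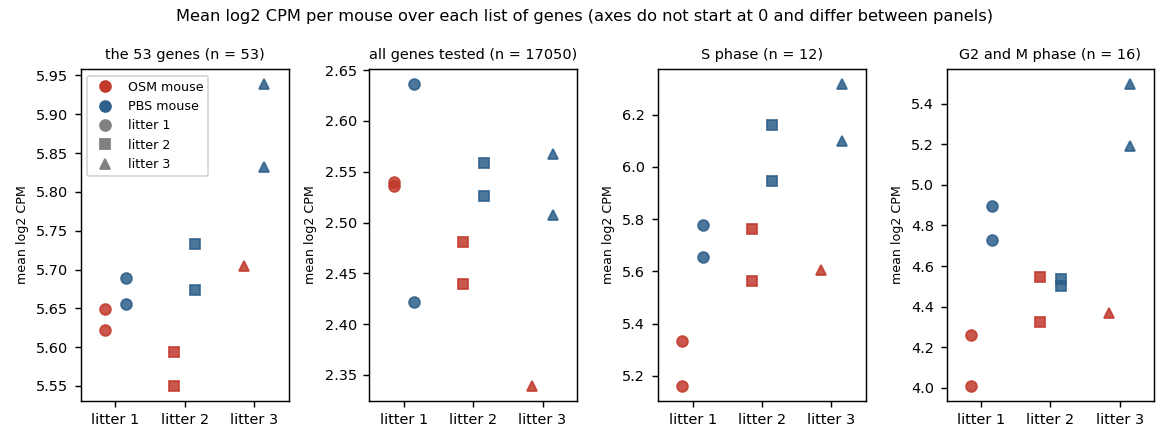
Mean log2 CPM per mouse over the 53 genes, all 17050 genes tested, the 12 S phase genes and the 16 G2 and M phase genes, by litter, with OSM mice in red and PBS mice in blue. For the 53 genes and the S phase list the red marks lie below the blue marks in every litter.

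Among the condensin subunits, 6 of 8 had a log2 fold change below 0 (median -0.19). The median was -0.12 without mouse 1, -0.11 without mouse 3 and -0.30 without mouse 8. Smc4, the SMC subunit common to condensin I and condensin II (ENSMUSG00000034349, chr3:68911944-68941960, GRCm39), showed the smallest p of all members. Its normalized read counts were 1296 and 1768 in OSM mice 1 and 2 against 2752 and 2557 in PBS mice 3 and 4 of litter 1. In litter 2 they were 2332 and 2146 in OSM mice 5 and 6 against 3421 and 2588 in PBS mice 7 and 8. In litter 3 OSM mouse 9 had 3679 against 4446 and 4567 in PBS mice 10 and 11. The OSM mice were thus the lower ones in each litter, and the groups overlapped through litter 3, which was higher as a whole.

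The log2 fold change of Smc4 was -0.53 ± 0.14 (SE), or 0.694-fold, with an unadjusted p of 0.00269 and an adjusted p of 0.955 in edgeR's quasi-likelihood test. DESeq2's Wald test gave the same log2 fold change of -0.53 and an adjusted p of 0.0183, which became 0.0817 when DESeq2 was run on the genes that pass the low-count filter. The adjusted p of Smc4 over the settings tried ranged from 0.0183 to 1. With each mouse left out in turn, the edgeR log2 fold change stayed between -0.61 and -0.43 and the unadjusted p between 0.00147 and 0.00908.

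The other SMC subunit of condensin, Smc2, stood at -0.13 ± 0.19 (SE) on the log2 scale, with within-litter differences of -0.16, 0.06 and -0.22. The difference between Smc4 and Smc2 was not tested. Ncapd3, a HEAT-repeat subunit of condensin II (ENSMUSG00000035024, chr9:26941456-27006626), had the largest difference of any member (-1.05 ± 0.48, SE, unadjusted p of 0.0526 and adjusted p of 0.955 in edgeR's quasi-likelihood test). Its normalized counts were 436, 347, 726, 1414 and 294 in OSM mice 1, 2, 5, 6 and 9, and 328, 1206 and 1635 at the lowest, median and highest of the 6 PBS mice. The difference was -2.0 in litter 1 and -1.15 in litter 3 but 0.15 in litter 2, and the groups overlapped. Of the exon sequence of Ncapd3, 15.1% also lies in other annotated genes.

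Ncapg2 pointed the other way, with a log2 fold change of 0.68 ± 0.47 (SE) and an unadjusted p of 0.171. Normalized counts were 283, 274, 125, 762 and 615 in OSM mice 1, 2, 5, 6 and 9. The PBS mice had 116, 259 and 521 at the lowest, median and highest. OSM mice 6 and 9 lay above the PBS range and the other OSM mice inside it. The within-litter differences of Ncapg2 were 1.00, 0.03 and 0.62. Ncapd2, the condensin I counterpart of Ncapd3, had a log2 fold change of 0.02 ± 0.18, and Ncapg one of -0.25 ± 0.38. Ncaph was lower in all 3 litters (-0.13, -0.44 and -0.61), yet 1 OSM mouse of litter 1 (3431) held more reads than any PBS mouse (highest 2765). Its log2 fold change was -0.32 ± 0.22 (SE), with an unadjusted p of 0.177 in edgeR's quasi-likelihood test. Without that mouse it was -0.58, with an unadjusted p of 0.00302 and no call after adjustment in the same test. With each mouse left out in turn it ranged from -0.58 to -0.21, and the unadjusted p of that test from 0.00302 to 0.398. Ncaph2 was at -0.12 ± 0.15, with 5306, 4893, 5265, 3988 and 7014 in the OSM mice and 4469, 5905 and 6771 at the lowest, median and highest of the PBS mice, and the groups overlapped.

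In the cohesin core, 4 of 5 subunits had a log2 fold change below 0 (median -0.20). With single mice left out this median ranged from -0.27 to -0.03, and it was at -0.13 or nearer to 0 without mouse 2, 4, 6, 7, 9 or 11. Rad21, the kleisin that separase cuts at anaphase, had the largest difference of them (-0.35 ± 0.19, SE, unadjusted p of 0.0879). Its counts were 1401, 1461, 1411, 1091 and 1397 in OSM mice 1, 2, 5, 6 and 9, and 1187, 1620 and 2494 at the lowest, median and highest of the PBS mice. The OSM mice sat in a narrow band below the PBS median, with mouse 6 below the lowest PBS mouse, and the within-litter differences were -0.48, -0.06 and -0.52. The ring subunits Smc3 (-0.20 ± 0.18) and Smc1a (-0.01 ± 0.10) differed by about 1 SE or less. The alternative STAG subunits had opposite signs, Stag1 at 0.27 ± 0.17 and Stag2 at -0.22 ± 0.32, and neither passed at an unadjusted p under 0.05.

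The cohesin regulators showed no common direction (3 higher, 2 lower, median 0.03, or -0.10 to 0.11 with single mice left out), and the closely related pair of PDS5 proteins, which bind the ring and govern its release, differed in sign. Pds5b (ENSMUSG00000034021, chr5:150597204-150734177) was counted at 1837 and 1826 in the OSM mice of litter 1 against 2648 and 2524 in its PBS mice. It was at 1499 and 2054 against 1660 and 2087 in litter 2, and at 1579 against 2178 and 2382 in litter 3. The groups separated in litters 1 and 3 and overlapped in litter 2. Its log2 fold change was -0.35 ± 0.14 (SE), with an unadjusted p of 0.0349 and an adjusted p of 0.955 in edgeR's quasi-likelihood test, and the unadjusted p ranged from 0.00556 to 0.115 with single mice left out.

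Pds5a was higher after OSM in all 3 litters (0.12, 0.42 and 0.40), with 2701, 2062, 2341, 1880 and 2138 normalized counts in the OSM mice and 1330, 1733 and 2224 at the lowest, median and highest of the PBS mice. Its log2 fold change of 0.30 ± 0.14 (SE) had an unadjusted p of 0.057 in edgeR's quasi-likelihood test. The release factor Wapl (0.11 ± 0.14), the loader Nipbl (0.03 ± 0.18) and Ctcf (-0.07 ± 0.17) differed by less than their standard errors. Of the SMC5/6 pair, which acts in DNA repair and replication, Smc5 was at 0.27 ± 0.16 and Smc6 at -0.15 ± 0.11. Smc5 was counted at 1247, 1648, 1244, 1493 and 1631 in the OSM mice and at 904, 1309 and 1560 at the lowest, median and highest of the PBS mice.

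The BAF and PBAF subunits were the largest group, and 10 of 12 had a log2 fold change below 0 (median -0.16), 4 of them in all 3 litters. The median of the group within litters was 0.15, -0.30 and -0.25 in litters 1, 2 and 3. With whole litters left out, the group's median was -0.33 without litter 1, -0.026 without litter 2 and -0.13 without litter 3. The group's median over all litters was -0.25 without mouse 2 and -0.08 without mouse 5. Pbrm1, the polybromo subunit that defines PBAF (ENSMUSG00000042323, chr14:30741081-30844178), was counted at 5323 and 5491 in the OSM mice of litter 1 against 6117 and 5770 in its PBS mice. In litter 2 it was at 6157 and 6792 against 6969 and 7873, and in litter 3 at 5715 against 9750 and 7281. OSM mice were lower than the PBS mice of their litter throughout, by margins that were narrow in litters 1 and 2. The log2 fold change was -0.27 ± 0.11 (SE), with an unadjusted p of 0.0311 and an adjusted p of 0.955 in edgeR's quasi-likelihood test. With single mice left out it ranged from -0.30 to -0.17. The unadjusted p of that test then ranged from 0.0258 to 0.151.

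Arid1a, the DNA-binding subunit of BAF, was lower in all 3 litters (-0.48, -0.40 and -0.20) with a log2 fold change of -0.41 ± 0.20 (SE, unadjusted p of 0.0695). Its OSM mice had 859, 785, 853, 737 and 1323 normalized counts and its PBS mice 812, 1211 and 1980 at the lowest, median and highest, and the groups overlapped. The catalytic subunit Smarca4 was also lower in the 3 litters (-0.25, -0.19 and -0.52), with 3627, 6267, 5910, 5223 and 5655 in the OSM mice against 5028, 6398 and 9338 at the lowest, median and highest of the PBS mice. Smarcd2 was lower by at most 0.18 in any litter. Mice injected with OSM had 4316, 6168, 3452, 4348 and 5157 normalized counts and PBS mice 4326, 5110 and 6098 at the lowest, median and highest, and the groups overlapped. Smarcc1, a scaffold subunit, had the highest value in the group (0.17 ± 0.26), and its paralog Smarcc2 was at -0.21 ± 0.35.

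**Figure D4:**
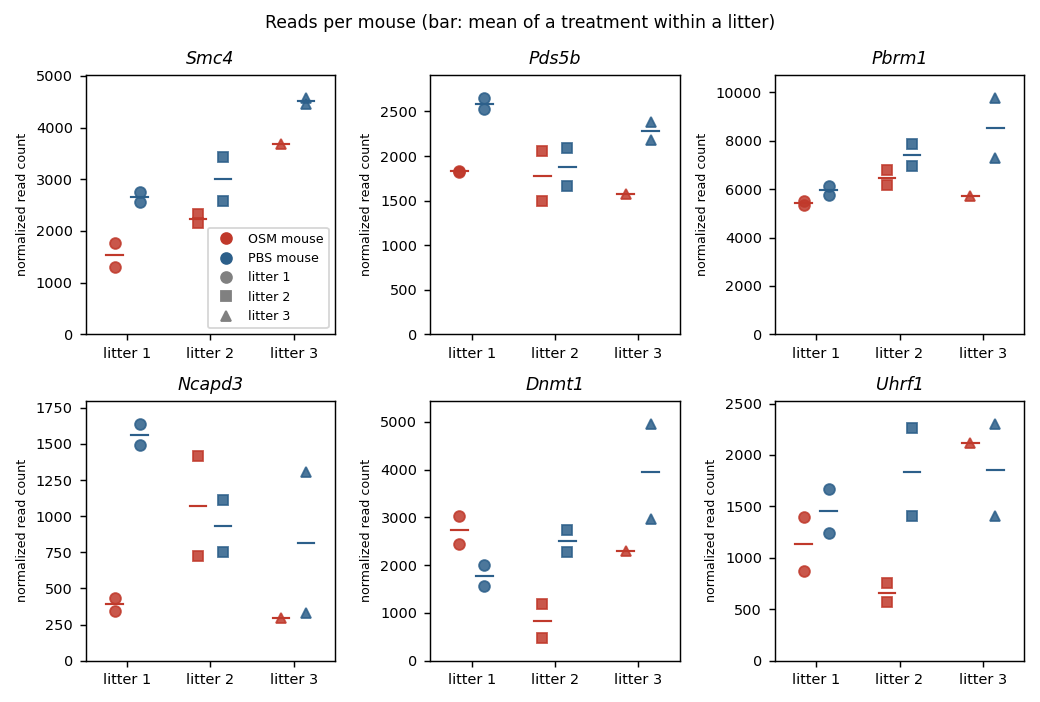
Normalized read counts per mouse of Smc4, Pds5b, Pbrm1, Ncapd3, Dnmt1 and Uhrf1, by litter, with OSM mice in red, PBS mice in blue and a bar at the mean of each treatment within a litter. Smc4 and Pbrm1 have the red marks below the blue marks in each litter, and Dnmt1 changes side between litter 1 and the other litters.

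The 3 genes of DNA methylation had the lowest group median (-0.56), and all 3 were below 0. This median was -0.24 without mouse 5 and -0.13 without litter 2. Dnmt1 copies methylation onto the new strand at replication forks, Uhrf1 recruits it to hemimethylated DNA, and Dnmt3a methylates DNA de novo. Uhrf1 was counted at 876 and 1401 in OSM mice against 1665 and 1240 in PBS mice of litter 1, at 574 and 752 against 1406 and 2261 in litter 2, and at 2114 against 1403 and 2296 in litter 3. Only in litter 2 were the treatments apart, and the log2 fold change of -0.61 ± 0.30 (SE) had an unadjusted p of 0.0668. Dnmt1 was counted at 3027 and 2443 against 2008 and 1555 in litter 1, at 487 and 1192 against 2282 and 2744 in litter 2, and at 2305 against 2972 and 4947 in litter 3.

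Dnmt1 was therefore higher after OSM in litter 1 (0.62) and lower in litters 2 (-1.71) and 3 (-0.73). Its OSM-minus-PBS difference varied between litters with an unadjusted p of 0.0125 and an adjusted p of 0.625 for the interaction in edgeR's quasi-likelihood test. Uhrf1 had an unadjusted p of 0.0464 for the same term, with differences of -0.37, -1.44 and 0.24. The lowest value of both genes was in mouse 5, the OSM mouse with the highest sum of rod markers (5524 CPM). The part of rod RNA in these values was not tested. Dnmt3a was at -0.21 ± 0.23, with 1411, 1379, 1405, 1688 and 719 in the OSM mice and 894, 1301 and 2494 at the lowest, median and highest of the PBS mice.

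Promoters were compared because several of the genes above belong to the machinery that copies and condenses chromosomes, and such genes often carry E2F sites or the cell cycle genes homology region (CHR) near their starts. RefSeq promoters (GRCm38.p6) were at hand for 42 of the 53 genes, and those of Smc4, Rad21, Stag2, Nipbl, Smarce1, Arid2, Chd1, Chd3, Chd7, Hdac1 and Hdac3 were not used here. The 250 bases before each listed start were searched on either strand. A gene was counted if any of its listed starts had a match. The E2F-like letters TTTNNCGC were found in 9 of 42 genes (21.4%), against 4.94% of 27025 genes and 5.93% of 17491 protein-coding genes in the same set of promoters. The CHR-like letters TTTGAA were found in 11 of 42 (26.2%), against 18.3% and 16.9%. Dnmt1, Ncapd2, Ncapg2 and Suz12 had both. The genes compared with were not limited to those expressed in these cells. They were not matched for base composition or for the number of listed starts. A match of letters is a description of the sequence and no evidence of binding.

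The stretches with the E2F-like letters of Uhrf1, Dnmt1, Ncapd2 and Ncapg2 are shown as examples from the 9 genes with a match, for both genes of DNA methylation and both condensin subunits among them, chosen with their values known. Capitals mark the match, in either orientation, and each stretch is given 5′ to 3′ on the strand of its gene.
Uhrf1, first start, chr17:56303241-56303328, + strand: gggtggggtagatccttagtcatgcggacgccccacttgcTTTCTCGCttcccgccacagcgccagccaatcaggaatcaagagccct
Uhrf1, other start, chr17:56304088-56304175, + strand: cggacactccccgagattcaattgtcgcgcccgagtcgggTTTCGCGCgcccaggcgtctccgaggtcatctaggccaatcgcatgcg
Dnmt1, chr9:20952793-20952873, - strand: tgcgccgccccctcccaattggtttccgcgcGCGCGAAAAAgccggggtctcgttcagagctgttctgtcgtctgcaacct
Ncapd2, chr6:125191587-125191634, - strand: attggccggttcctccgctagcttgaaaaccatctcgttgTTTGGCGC
Ncapg2, chr12:116405186-116405279, + strand: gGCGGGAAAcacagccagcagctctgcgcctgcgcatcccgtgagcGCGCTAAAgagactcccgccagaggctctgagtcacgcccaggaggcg

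The run of capitals in Dnmt1 holds 2 overlapping matches and Ncapg2 holds 2 separate ones. The match of Ncapd2 ends directly at the annotated start, and that of the first Uhrf1 start ends 48 bases before it. Next to these sequences stand log2 fold changes of -0.61 for Uhrf1, -0.56 for Dnmt1, 0.02 for Ncapd2 and 0.68 for Ncapg2, none of which passed at an unadjusted p under 0.05.

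The CHD and INO80 ATPases showed 4 values above 0 and 2 below (median 0.06, or -0.13 to 0.12 with single mice left out). Chd1, which acts on transcribed genes, had the largest of them (-0.33 ± 0.36, SE) and differed in sign between litters (-0.95, 0.54 and -0.74). Counts of Chd1 were 1461, 719, 2373, 1499 and 654 in the OSM mice and 688, 1541 and 2154 at the lowest, median and highest of the PBS mice. Chd7, mutated in CHARGE syndrome, was lower after OSM in litter 1 (-0.69) and higher in litter 2 (1.01), where OSM mouse 5 reached 5152 normalized counts, above every other mouse. The interaction of Chd7 had an unadjusted p of 0.0173 and an adjusted p of 0.656 in edgeR's quasi-likelihood test.

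Chd4, the ATPase of the NuRD complex, was steady (0.02 ± 0.18), and its paralog Chd3 was at 0.13 ± 0.21. Chd8 was at -0.12 ± 0.23, with 773, 625, 796, 386 and 1082 in the OSM mice and 563, 860 and 1120 at the lowest, median and highest of the PBS mice. Ino80 had the least precise value of all (0.11 ± 0.65), with 253, 49.4, 283, 413 and 179 in the OSM mice and 22.4, 281 and 358 at the lowest, median and highest of the PBS mice.

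PRC2 places the repressive methyl mark on histone H3. Its catalytic subunit Ezh2 had a log2 fold change of -0.38 ± 0.30 (SE, unadjusted p of 0.235), with 427, 891, 418, 720 and 602 in the OSM mice and 459, 807 and 1172 at the lowest, median and highest of the PBS mice. The alternative catalytic subunit Ezh1 was at -0.04 ± 0.24 overall but differed between litters (-0.19, 0.61 and -0.85, unadjusted p of 0.0288 for the interaction in edgeR's quasi-likelihood test). Ezh1 had 1590, 1955, 1880, 2630 and 1058 normalized counts in the OSM mice and 1199, 1816 and 2199 at the lowest, median and highest of the PBS mice. The structural subunits Suz12 (-0.15 ± 0.32) and Eed (0.16 ± 0.25) had opposite signs.

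Among the deacetylases, Sirt1 had the largest difference (-0.35 ± 0.33, SE). It was counted at 536, 624, 604, 334 and 487 in the OSM mice and at 411, 518 and 1398 at the lowest, median and highest of the PBS mice, and without the highest, mouse 4, the log2 fold change was 0.01. Hdac1 (0.04 ± 0.13), Hdac2 (-0.15 ± 0.14) and Hdac3 (0.18 ± 0.19) lay near 0. Of the lysine methyltransferases, Setd2, which marks transcribed gene bodies, was at -0.19 ± 0.31, while Kmt2a (0.01 ± 0.28), Kmt2c (0.18 ± 0.15) and Kmt2d (0.08 ± 0.21), which mark promoters and enhancers, were at or above 0. Setd2 was counted at 761, 1289, 759, 786 and 884 in the OSM mice and at 344, 1068 and 1772 at the lowest, median and highest of the PBS mice.

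The litter of a mouse separated more members than its treatment did. At an unadjusted p under 0.05 for the litter term, 13 of 53 members passed (24.5%), against 10.3% of all genes tested, and no member was called after adjustment (0.0176% of all genes were). Smc4 had the smallest p (0.000445, adjusted p of 0.103 in edgeR's quasi-likelihood test), and its fitted level was higher by 0.36 in litter 2 and by 0.97 in litter 3 than in litter 1, on the log2 scale. Smc2, its partner in condensin, was higher in litters 2 and 3 as well (0.70 and 0.87, unadjusted p of 0.00795), with 866, 853, 855 and 1081 in mice 1 to 4 of litter 1, 1385, 1544, 1980 and 998 in mice 5 to 8 of litter 2, and 1530, 1671 and 1895 in mice 9 to 11 of litter 3.

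Kmt2c had the same order of litters (0.56 and 0.80, unadjusted p of 0.00472). It was counted at 1093, 1053, 996 and 713 in mice 1 to 4, at 1452, 1379, 1246 and 1570 in mice 5 to 8, and at 1818, 1551 and 1537 in mice 9 to 11, and litter 1 did not overlap with the others. Smarca2, the BRM ATPase that can replace Smarca4 in BAF, ran the other way (-0.65 and -0.83, unadjusted p of 0.00576). It was at 8768, 7472, 7174 and 7254 in litter 1, at 4866, 3086, 4849 and 6905 in litter 2, and at 4833, 3845 and 4394 in litter 3. Smc1a differed mostly by lower values in litter 2 (-0.32, unadjusted p of 0.0189), where it was at 4735, 5609, 5381 and 4619, against 5437 to 6925 in litter 1 and 5988 to 7096 in litter 3. Litter and OIR run cannot be told apart.

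For the difference of OSM minus PBS between litters, 4 of 53 members had an unadjusted p under 0.05 (7.55%, against 6.42% of all genes tested), namely Chd7, Dnmt1, Ezh1 and Uhrf1. None of the members or of all genes (0%) was called after adjustment in edgeR's quasi-likelihood test.

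Paralogs were compared as ratios of levels per exon length within each mouse. Apart from Dnmt3a and Dnmt1, whose roles differ, the genes of a pair take the same place in a complex. Ezh1 exceeded Ezh2 in 11 of 11 mice, with a mean log2 ratio of 1.00 ± 0.57 (SD, n = 11). Smarca2 was below Smarca4 in all mice by merged exons (-1.55 ± 0.68), but the long annotated exons of Smarca2 weigh on this value, and by the longest transcript the mean was -0.33, with Smarca2 higher in 3 of 11 mice. Dnmt3a was below Dnmt1 in all mice but mouse 5 (-1.66 ± 1.05). Stag1 and Stag2 (0.05 ± 0.59) and Arid1b and Arid1a (-0.12 ± 0.71) were present at similar levels by merged exons, with the first of the pair higher in 6 and in 5 of 11 mice. By the longest transcript these means were 0.62 and -0.50.

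The 5 ratios differed between OSM and PBS by 0.20 (Smarca2 to Smarca4), 0.35 (Ezh1 to Ezh2), 0.49 (Stag1 to Stag2), 0.34 (Arid1b to Arid1a) and 0.43 (Dnmt3a to Dnmt1) on the log2 scale, with litter in the model. The two-sided exact permutation test, over the 108 ways to assign treatments within litters, gave p from 0.185 for Stag1 to Stag2 up to 0.5 for Smarca2 to Smarca4, and an adjusted p of 0.5 for each. The smallest p this design allows is 0.00926. Single mice moved these differences: with each left out in turn they ranged from 0.01 (without mouse 9, and 0.02 without mouse 1) to 0.36 (without mouse 8) for Smarca2 to Smarca4, from 0.18 (without mouse 5) to 0.54 (without mouse 2) for Ezh1 to Ezh2, from 0.37 to 0.75 (without mouse 7) for Stag1 to Stag2, from 0.03 (without mouse 4) to 0.76 (without mouse 9) for Arid1b to Arid1a, and from 0.10 (without mouse 8, and 0.13 without mouse 5) to 0.59 for Dnmt3a to Dnmt1. No ratio had a difference of the same sign in all 3 litters. Stag2 was counted at 2036, 1961, 1652, 3930 and 1178 in the OSM mice and Stag1 at 2343, 3393, 2173, 2862 and 2594, so that the ratio was below 0 in OSM mouse 6, where Stag2 was highest. The PBS mice ranged from 1459 to 3755 for Stag2 and from 1692 to 2767 for Stag1.

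Arid1b was counted at 1586, 1414, 467, 1004 and 752 in the OSM mice and at 573, 1104 and 1697 at the lowest, median and highest of the PBS mice. Its within-litter differences of 0.74, -0.10 and -1.12 spanned the widest range among the BAF subunits, and the groups overlapped.

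**Figure D5:**
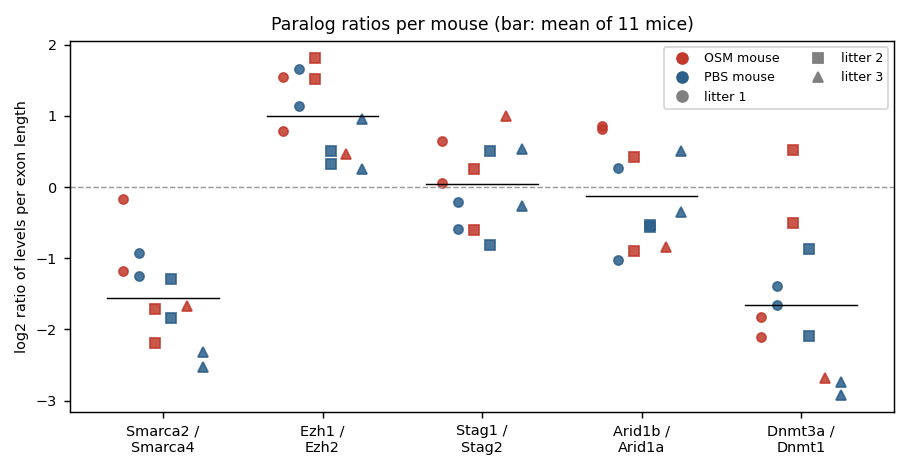
log2 ratio of the levels per exon length of 5 paralog pairs in each mouse, with OSM mice in red, PBS mice in blue, a marker shape for each litter and a bar at the mean of 11 mice. Ezh1 to Ezh2 lies above 0 in all mice, Smarca2 to Smarca4 lies below 0 in all mice, and red and blue marks are mixed in each pair.

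Other subunits of these complexes that are not among the 53 genes were read from a list of 119, of which 117 passed the filter. A log2 fold change below 0 was found for 65 and one above 0 for 52 (median -0.06), and none was called in edgeR's quasi-likelihood test or by DESeq2. At an unadjusted p under 0.05 stood 3 of them (2.56%, against 4.96% of all genes tested). They were Chd2, a further remodeler of the CHD family (-0.88 ± 0.32, SE), the class IIa deacetylase Hdac4 (-0.56 ± 0.25) and the securin Pttg1, which restrains separase until anaphase (0.35 ± 0.15). The mean log2 CPM of the 117 genes overlapped between treatments in litters 1 and 2.

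Many of the 53 genes are long, and the cDNA was primed at the poly(A) tail. Of the members, 31 have merged exons of 8 kb or more, and 18 of these had a log2 fold change below 0 (median -0.04). For all genes of that length the median was -0.04 as well, with 55.4% below 0. Of the 21 members of 4 to 8 kb, 16 were below 0 (median -0.15), against 50.8% of all genes of that length (median -0.01). The bins were not compared by a test, and the part of transcript length was not tested.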

How the data were processed

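RNA of sorted cells (500 pg per mouse) was reverse transcribed from the poly(A) tail, amplified over PCR cycles and read from 1 end. The authors aligned reads to GRCm39 with STAR 2.7.8a and assigned them to GENCODE annotation with featureCounts 2.0.1 at standard settings, and the deposited values are raw whole-number counts per gene. These settings do not use strand, so overlapping and antisense genes cannot be separated.

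Symbols, positions and exon lengths were taken from GENCODE vM39. Counts were analysed with edgeR 4.0.16 in R 4.3.3: filterByExpr (minimum count 10), TMM, a robust quasi-likelihood fit with litter and treatment, and Benjamini-Hochberg adjustment over 17050 genes (threshold 0.05). Normalized read counts are CPM times the mean library size. log2 CPM used a prior count of 2. DESeq2 1.42.0 (Wald test, litter and treatment) was the main alternative. Other alternatives left out the litter term, used DESeq2's size factors, no or a stricter count filter, no robust estimation, thinned libraries, and each mouse or litter left out. Scripts were tested on simulated data. Depth was 26697990 to 56033479 reads. The libraries carry no molecular identifiers, so errors are taken from the spread over mice and not from read numbers.

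The count columns of PBS mice 10 and 11 are headed with the next higher mouse number, and samples were taken by their titles.

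The members, lists and settings were chosen with earlier results of these data known. Values per mouse are given for members with an unadjusted p under 0.05, the largest difference in each group, the 3 highest and 3 lowest levels, the 5 smallest litter p and the paralog pairs. Pds5a, Ncaph and Chd7 were added after their values were seen.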

Additional observations from a re-analysis of the deposited data

Results flagged for a closer look

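In 10 of 106 sets of mice (53 genes in each treatment), 1 mouse stood apart from the others of its treatment by Dixon's criterion at the 95% level, which chance alone meets in about 1 of 20 sets. In normalized read counts, among OSM mice, these were Rad21 in mouse 6 (1091, others 1397 to 1461), Ncapd2 in mouse 6 (1684, others 2605 to 2954), Ncaph in mouse 2 (3431, others 1435 to 1684), Setd2 in mouse 2 (1289, others 759 to 884), Arid1a in mouse 9 (1323, others 737 to 859) and Dnmt3a in mouse 9 (719, others 1379 to 1688).

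Among PBS mice they were Ino80 in mouse 4 (22.4, others 182 to 358), Sirt1 in mouse 4 (1398, others 411 to 636), Ezh1 in mouse 7 (1199, others 1771 to 2199) and Setd2 in mouse 8 (344, others 981 to 1772). Mice 2, 4, 6 and 9 each account for a pair of these values. The sets pool the 3 litters, and the chance rate takes no account of litter. Mouse 9 is the only OSM mouse of litter 3, whose PBS mice had 894 and 1309 for Dnmt3a and 1980 and 1166 for Arid1a.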

How the results depend on the processing

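Calls depended on the tool and the filter. For OSM against PBS, 0 genes were called by edgeR with litter, 65 by edgeR when no low-count filter was set, 168 by DESeq2 with litter (1 member, Smc4), 88 by DESeq2 without litter and 62 by DESeq2 on the filtered genes, a setting added after the data were seen. Members at an unadjusted p under 0.05 numbered 3 with edgeR, 6 with DESeq2, 5 with DESeq2 on the filtered genes, 5 without a filter, 5 with at least 10 counts in every mouse, and 2 to 7 with single mice left out (5 to 7 without mouse 10, 7 or 2). For the litter term, 3 genes were called, 625 without a filter (3 members: Smc4, Smarca2 and Dnmt1), 16 after thinning and 0 to 44 with single mice left out (44 without mouse 8), and 13 members were at an unadjusted p under 0.05 against 8 to 12 with single mice left out (8 without mouse 2 or 6). For the interaction, no filter gave 305 genes, 3 members (Smarcc2, Chd7 and Dnmt1) and 11 members at an unadjusted p under 0.05. The causes were not tested.

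The median log2 fold change of BAF and PBAF was -0.33 without litter 1 and -0.026 without litter 2. That of all members was -0.054 without litter 2. The mean log2 ratio of Smarca2 to Smarca4 was -0.33 by the longest transcript. Values near 0 changed sign. Without litter 1 the log2 fold change was 0.036 for Chd1, -0.19 for Ino80, 0.028 for Chd8 and 0.060 for Ezh1. Without litter 2 it was 0.013 for Ncaph2, 0.19 for Smarca2 and 0.089 for Dnmt1, and without litter 3 it was 0.059 for Smc1a, 0.20 for Ezh1 and 0.31 for Arid1b. Without a litter term it was -0.036 for Ino80, 0.017 for Smarca2 and 0.012 for Ezh1 in edgeR, and -0.038, 0.0096 and 0.0063 in DESeq2. With single mice left out the ranges were -0.50 to 0.011 for Sirt1, -0.43 to 0.50 for Ino80, -0.20 to 0.066 for Smarca2, -0.26 to 0.013 for Smc2, -0.072 to 0.059 for Smc1a, -0.22 to 0.20 for Ezh1 and -0.25 to 0.31 for Arid1b. Smc4 kept its direction under all 23 alternatives. No paired analysis was possible because mouse numbers are not shared between treatments. Litter took the place of a block.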
